A study of Mus musculus with 77 samples.

Results

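Enhancers that were bound by the transcription factor PU.1 without CEBPA, and that already carried enhancer marks in LSK cells, numbered 1549 of the 44002 enhancers (3.52%) in a deposited table of the granulocytic and monocytic lineage of mouse bone marrow. They were chosen by the authors' own classes, taking every enhancer whose bound factor is given as PU.1 alone and whose class of stages starts in LSK. They made up 18.5% of the 8387 PU.1-only enhancers and 23.1% of the 6712 enhancers that start in LSK, and they were assigned to 1233 genes. By the class of stages, every member was also an enhancer in preGM and GMP. In 538 (34.7%) the class ran on to granulocytes, and in 1011 (65.3%) it ended at GMP. Separate flags of stages, deposited beside the classes, differ from this. Of the 1011, 365 were flagged in LSK alone, 242 in LSK and preGM only, and 404 in LSK, preGM and GMP. The criterion behind the classes is not stated. Since they name binding and stages, the levels of PU.1, of CEBPA and of the marks in LSK are taken as used in the selection and are given as a description only.

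The cells were sorted from fresh bone marrow. Cebpa KO preGM (Lin-, Sca-1-, ckit+, CD150-, CD105-) were set against wild type preGM of the same gate, and the wild type series ran from LSK (Lin-, Sca-1+, ckit) through preGM and GMP (Lin-, Sca-1-, ckit+, CD150-, FcgRII/III+) to Mac1+Gr-1+ granulocytes. How Cebpa was deleted, and the age and sex of the mice, are not given in the sources used here, and the deletion itself was not checked. Chromatin immunoprecipitation was read for H3K27ac and H3K4me1 in all 5 of these groups, for PU.1 in all but granulocytes, and for CEBPA in wild type preGM. Each group of 2 listed libraries appears in the table as 1 pooled signal per enhancer, so no spread between replicates, no test and no p-value can be given, and a difference between groups is a difference between pooled values. The depth behind a value is unknown. Fewer cells of a type and less signal per cell cannot be told apart in such bulk samples. In the table, 13 secondary granule and mature neutrophil genes had 115 enhancers. Of these, 80 had at least 2-fold more H3K27ac in granulocytes than in GMP, against 14.1% of all enhancers. None of the 115 was a PU.1-only enhancer of the LSK stage, against 3.52% of all enhancers.

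PU.1, the product of Spi1 (Sfpi1 in older nomenclature), is an ETS-family factor that is needed for myeloid and lymphoid development and is present from the stem cell compartment onwards, where it binds purine-rich sites around a GGAA core and helps to open chromatin. CEBPA is a basic leucine zipper factor that is needed for the step to granulocyte and monocyte progenitors, and the pair bind together at many myeloid enhancers. H3K4me1 marks enhancers whether active or poised, while H3K27ac marks those that are active.

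The genome build of the enhancers, mm9, had no sequence at hand, so the promoters of the assigned genes are shown in their place. They come from RefSeq on build GRCm38.p6 and run 5′ to 3′ on the gene's strand, from 250 bases before the start site to 50 after it. The letters GAGGAAGT, the core of the motif that PU.1 prefers among ETS factors, were searched on both strands (ACTTCCTC on the other). They were found in the promoter of 55 of the 982 member genes that had a promoter in the table (5.60%), against 296 of 8012 genes assigned to any enhancer (3.69%) and 997 of all 27025 genes (3.69%). Among the genes named here, 62 had a promoter and 7 of these held the motif (Inpp5d, S100a4, Cmtm3, Prtn3, Itgb7, Calhm2 and Dusp5). A promoter is shown for 4 of them, because their enhancers lead the comparisons described further on: Prtn3 and S100a4 as opposite ends of the PU.1 difference between GMP and preGM, Cmtm3 for its low PU.1 in Cebpa KO cells, and Dusp5 for its strong PU.1 signal in LSK. Capitals mark the motif, on the gene's own strand in Prtn3 and Cmtm3 and on the opposite strand in S100a4 and Dusp5. The positions are chr10:79879417-79879716 for Prtn3 and chr3:90603520-90603819 for S100a4, chr8:104340344-104340643 for Cmtm3 and chr19:53528895-53529194 for Dusp5, each on the + strand. A match of letters in a promoter is a description, and it says nothing of binding there.
Prtn3: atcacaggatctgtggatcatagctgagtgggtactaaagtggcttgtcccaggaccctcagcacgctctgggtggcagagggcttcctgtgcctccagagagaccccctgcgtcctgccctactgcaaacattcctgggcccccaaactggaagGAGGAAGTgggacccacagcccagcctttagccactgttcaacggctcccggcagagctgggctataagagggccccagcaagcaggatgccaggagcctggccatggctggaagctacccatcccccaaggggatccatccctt
S100a4: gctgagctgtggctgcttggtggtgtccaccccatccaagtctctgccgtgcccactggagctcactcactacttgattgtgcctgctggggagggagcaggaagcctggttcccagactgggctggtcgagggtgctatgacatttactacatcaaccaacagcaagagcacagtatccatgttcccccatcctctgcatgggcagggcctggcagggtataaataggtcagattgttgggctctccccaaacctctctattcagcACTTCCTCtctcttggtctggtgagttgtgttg
Cmtm3: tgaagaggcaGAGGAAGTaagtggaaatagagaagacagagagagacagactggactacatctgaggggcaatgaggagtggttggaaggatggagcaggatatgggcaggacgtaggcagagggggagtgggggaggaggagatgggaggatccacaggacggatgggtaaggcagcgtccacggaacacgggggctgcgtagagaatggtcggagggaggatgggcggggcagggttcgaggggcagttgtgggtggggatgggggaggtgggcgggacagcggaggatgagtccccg
Dusp5: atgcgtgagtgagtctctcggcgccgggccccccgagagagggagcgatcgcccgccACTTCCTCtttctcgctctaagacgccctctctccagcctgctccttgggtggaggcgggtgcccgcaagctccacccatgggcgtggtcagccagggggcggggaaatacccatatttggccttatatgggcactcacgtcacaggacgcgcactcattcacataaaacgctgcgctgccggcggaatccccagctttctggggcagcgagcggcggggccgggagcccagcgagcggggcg

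The enhancers lay on all 19 autosomes and none on X, with a median width of 127 bp (1 to 841 bp) against 194 bp over all enhancers, 220 bp in PU.1-only enhancers that start after LSK and 121 bp in unbound enhancers of the LSK stage. Of the 1233 genes, 1002 had 1 member, 170 had 2 and 61 had 3 or more. Neighbours on a chromosome were a median of 239276 bp apart, but 120 of 1530 neighbouring pairs lay within 1000 bp of each other. Some close pairs held nearly the same PU.1 signal, such as the pair at Ccdc97 with 13.3 and 13.7 in wild type preGM. Others differed, such as 2 neighbours at 1700029H14Rik with 56.7 and 12.5. Close neighbours were not treated as independent of each other.

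PU.1 signal at the members had a median of 3.67 in LSK, 5.59 in preGM and 4.56 in GMP, against 0.994, 1.34 and 1.25 over all enhancers. It was highest in preGM at 1125 members (72.6%), in GMP at 350 (22.6%) and in LSK at 74 (4.78%), while over all enhancers preGM held the highest value at 49.9%. The order of enhancers by PU.1 was much the same in preGM and LSK, with a Spearman correlation of 0.90 across the 1549 members. PU.1 in preGM overlapped between members and unbound enhancers of the LSK stage: the lowest 5% of members had at most 2.30, while the highest 5% of the unbound had at least 2.91. In GMP the unbound reached at most 2.99 and members went down to 0.442, while LSK-stage enhancers bound by both factors started at 3.02. CEBPA signal in preGM had a median of 0.537 at the members, 1.00 at LSK-stage enhancers classed as bound by both factors, and 0.519 at unbound ones. The members were therefore at the level of unbound enhancers for CEBPA, which is what their class selects.

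H3K4me1 had a median of 5.45 in LSK, 4.55 in preGM, 5.48 in GMP and 6.99 in granulocytes at the members. H3K27ac had medians of 1.47, 1.59, 2.12 and 2.06 in the same order. The class that ends at GMP and the class that runs to granulocytes were close in PU.1 and H3K4me1 up to GMP, but H3K27ac already differed in LSK, with a median of 1.78 in the granulocyte class and 1.36 in the GMP class. By granulocytes the medians were 4.55 and 1.20. The stage classes are the authors', their criterion is not stated, and they may rest on these marks.

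**Figure D1:**
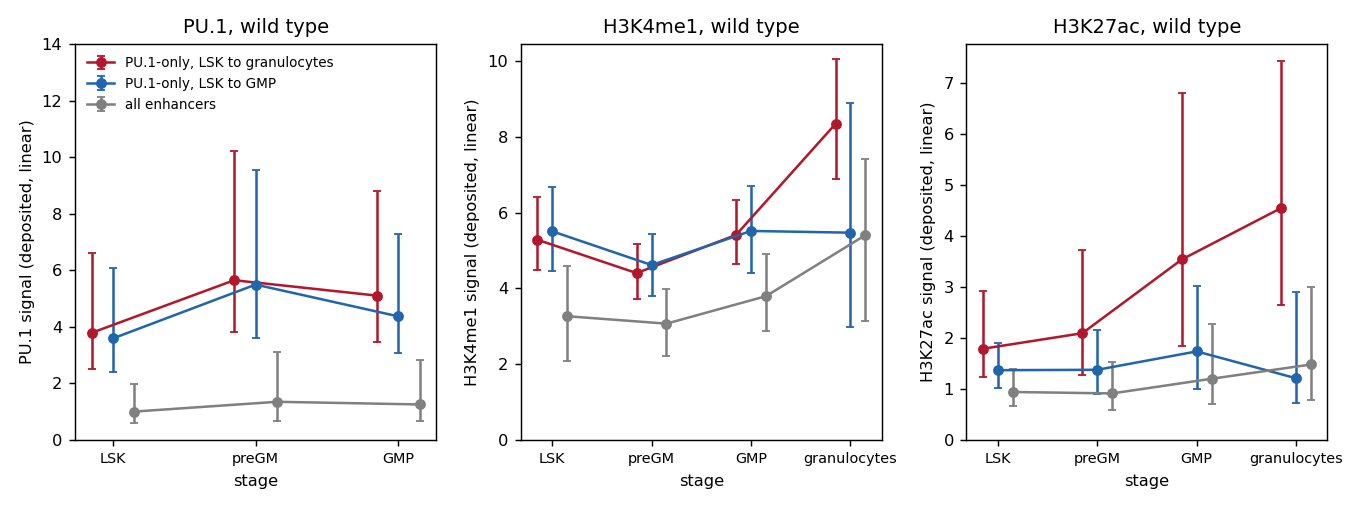
Median deposited signal (points) and quartiles (bars) of PU.1, H3K4me1 and H3K27ac by wild type stage, for PU.1-only enhancers classed from LSK to granulocytes (538, red), those classed from LSK to GMP (1011, blue) and all 44002 enhancers (grey). PU.1 peaked in preGM in both classes, and H3K27ac in granulocytes had a median of 4.55 in the red class and 1.20 in the blue class.

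The strongest PU.1 signals in LSK were at enhancers of Syt2 (72.6), encoding a synaptotagmin, Dusp5 (69.4), encoding a nuclear ERK phosphatase, Ptma (68.0), encoding prothymosin alpha, and Slc39a13 (66.5), encoding a zinc transporter. They were followed by Calhm2 (55.5), 2 neighbouring enhancers of 1700029H14Rik (54.5 and 54.1), Fam65b (52.6), the adhesion receptor gene Cd97 (49.8) and Ppcdc (49.5). The smallest PU.1 signal of a member in LSK was 0.662. Within the members, PU.1 strength had little relation to the marks. When the members were put in 4 equal groups by PU.1 in LSK, H3K27ac in LSK had medians of 1.32, 1.53, 1.62 and 1.42 from the weakest to the strongest group. Across members the Spearman correlation of PU.1 with H3K27ac was 0.09 in LSK, 0.06 in preGM and 0.13 in GMP, against 0.46, 0.42 and 0.42 across all 44002 enhancers, which also span unbound ones. These values come from different libraries of the same cell type, and enhancers that share a region are not independent points. The Syt2 enhancer, strongest in PU.1, had H3K27ac of 1.69 in LSK, 0.514 in preGM, 0.520 in GMP and 1.18 in granulocytes. The Dusp5 enhancer, next in PU.1, had 3.91, 3.99, 4.67 and 13.4 along the same stages.

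Differences are given from here on as log2 ratios after adding a small constant to both values (0.6 for PU.1, 0.7 for H3K27ac and 2 for H3K4me1), and an enhancer is counted when it is at least 2-fold higher or lower. Since the columns have no stated scaling, each count is set against the same count over all enhancers, and it is repeated after subtracting the median ratio of all enhancers where that median is above 0.1 in size. The medians of all enhancers were 0.30 for PU.1 in preGM against LSK and -0.27 for PU.1 in KO against wild type preGM. For H3K27ac they were 0.29 for GMP against preGM and 0.14 for granulocytes against GMP. For H3K4me1 they were 0.14 for GMP against LSK, 0.32 for granulocytes against GMP and 0.10 for KO against wild type preGM.

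The PU.1 signal of preGM exceeded that of LSK at 1463 members (94.4%), against 76.4% of all enhancers. At least 2-fold more PU.1 in preGM was counted at 148 members (9.55%), against 6.56% of all enhancers, and 2-fold less at 0 members, against 0.0364%. After centring, 38 members (2.45%) were 2-fold higher, against 2.2% of all enhancers, so the share was then near the background. PU.1-only enhancers that start after LSK held 15.5% with 2-fold more PU.1, or 5.44% after centring. Both shares were above those of the members. The largest ratios with a signal at or above the members' median were at BC025920, with 8.36 in preGM and 1.74 in LSK, and at the transglutaminase gene Tgm2, with 17.8 and 4.34. The pair at Ccdc97 followed, with 13.3 and 13.7 in preGM, against 3.16 and 3.29 in LSK. The H3K27ac ratio was alike with and without this PU.1 difference. Its median log2 ratio of preGM against LSK was 0.09 at the 148 members with 2-fold more PU.1 and 0.09 at the other 1401.

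The Spi1 gene itself, listed as Sfpi1, had 12 enhancers in the table and 1 of them was a member, at chr2:90927035-90927247 (mm9). Its PU.1 signal was 1.85 in LSK, 8.02 in preGM and 8.44 in GMP. In Cebpa KO preGM it was 2.05, against 8.02 in wild type preGM, so that the KO value lay beside that of LSK. H3K27ac there was 0.629 in LSK, 0.785 in preGM, 2.81 in GMP and 2.92 in granulocytes, and 0.748 in KO preGM. H3K4me1 was 3.25, 3.74, 5.67 and 10.1 along the stages and 4.01 in KO preGM. Both marks stood near their wild type preGM level in KO cells, but that level itself differed little from LSK. The H3K27ac values of LSK, preGM and KO preGM also lay near the added constant of 0.7. Whether the marks in KO cells were at the preGM or the LSK level can therefore not be told here. The member assigned to Slc39a13, among the strongest of all, lay 16130 bp away on the same chromosome. Its PU.1 signal was 43.2 in KO preGM, against 78.5 in wild type preGM, and it was 66.5 in LSK. Cebpa had 16 enhancers in the table, of which none was a member; 3 of the 16 were PU.1-only but started after LSK.

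Between GMP and preGM, PU.1 was lower in GMP at 1192 members (77.0%), against 57.9% of all enhancers. At least 2-fold less PU.1 in GMP was counted at 41 members (2.65%), against 0.775% of all enhancers, and 2-fold more at 2 members (0.129%), against 0.768%. PU.1-only enhancers that start after LSK held a similar 2.33% with 2-fold less, and 0.541% with 2-fold more. LSK-stage enhancers bound by both factors held 0.535% of each. Their PU.1 in GMP started at 3.02, while members went down to 0.442, so a 2-fold lower value in GMP was less open to that class. The members were chosen as bound by PU.1, and the parts of that choice and of this floor in these differences were not tested. All 41 members with 2-fold less were in the class that ends at GMP, and none was in the class that runs to granulocytes. The authors' flags of stages, deposited with no stated criterion, split the GMP class further: 2-fold less PU.1 in GMP was counted at 8.26% of the 242 members flagged in LSK and preGM, at 3.22% of the 404 flagged in LSK, preGM and GMP, and at 2.19% of the 365 flagged in LSK alone. Among members with at least median PU.1 in preGM, the lowest ratios were at S100a4, Egfl7, Prex1 and Irf2. S100a4, a calcium-binding protein gene, had 7.24 in GMP, against 22.7 in preGM. Egfl7, which encodes a secreted factor and hosts the stem cell microRNA miR-126 in an intron, had 1.78 in GMP, against 6.14 in preGM. Prex1, a Rac exchange factor of neutrophils, had 3.57 and 11.1, and the interferon regulatory factor gene Irf2 had 6.18 and 17.3. The opposite case was Prtn3, which encodes proteinase 3 of the primary granules. Its enhancer at chr10:79342515-79342596 (mm9) had PU.1 of 9.51 in GMP, against 4.08 in preGM, and H3K27ac of 5.76 in GMP, against 1.12 in preGM. In granulocytes, which no longer make primary granule proteins, H3K27ac at that enhancer was 1.23. The other member at Prtn3 had PU.1 of 5.11 in GMP, against 2.50 in preGM.

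The PU.1 and H3K27ac differences of this step went together to a degree. At the 41 members with 2-fold less PU.1 in GMP the median H3K27ac ratio of GMP against preGM was -0.07 (quartiles -0.47 and 0.25), against 0.39 (0.01 and 0.72) at the other 1508. H3K4me1 had medians of 0.02 and 0.20 in these groups. None of the 41 had 2-fold more H3K27ac in GMP, while 166 of the 1508 did, against 9.21% of all enhancers. With only 41 members, little can be read from a count of 0. H3K27ac in preGM had a median of 1.13 at the 41 and 1.59 at the other 1508. The split also follows the stage class, since all 41 were of the class that ends at GMP. That class held 8.11% with 2-fold more H3K27ac, against 15.6% in the class that runs to granulocytes. The part of the stage class in this difference was not tested. Across members the Spearman correlation of the PU.1 ratio with the H3K27ac ratio was 0.33, against 0.13 across all enhancers. The values come from different libraries of the same cells, and no test of this difference was possible. The Hoxa7 enhancers stood outside this relation. The pair, at a homeobox gene of early progenitors, had H3K27ac of 1.18 and 0.787 in GMP, against 3.16 and 2.91 in preGM, while PU.1 was 5.17 and 4.44 in GMP, against 5.36 and 4.75 in preGM.

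**Figure D2:**
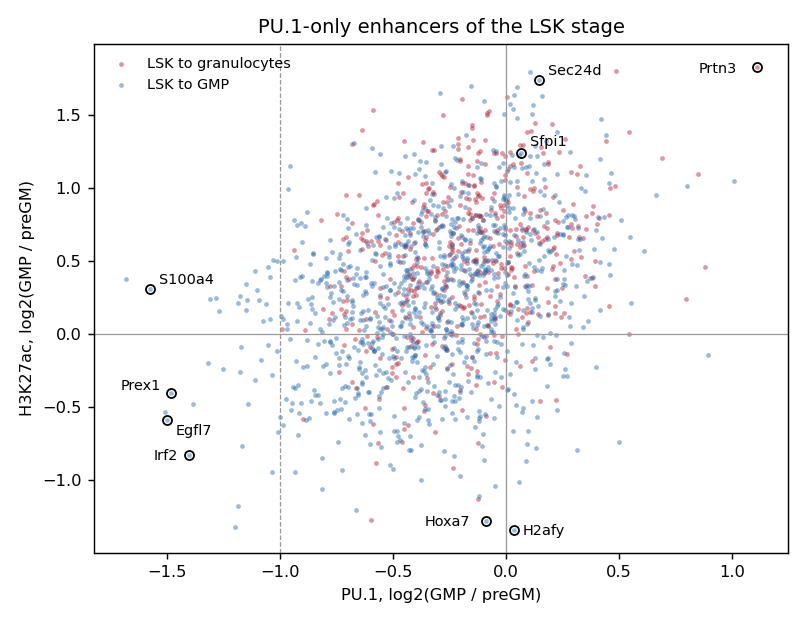
Log2 ratio of GMP against preGM for PU.1 (x axis) and H3K27ac (y axis) at the 1549 PU.1-only enhancers of the LSK stage, coloured by stage class. The dashed line marks 2-fold less PU.1 in GMP; all 41 points to its left are of the class that ends at GMP, and Prtn3 lies at the upper right.

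H3K27ac hardly differed between preGM and LSK. At least 2-fold more was counted in preGM at 9 members (0.581%), against 0.72% of all enhancers, and 2-fold less at 8 (0.516%), against 0.364%. The highest ratios were at Luzp1, with 4.40 in preGM and 1.23 in LSK, the peptidase gene Dpp4, with 4.86 and 1.49, a Gse1 enhancer, with 2.93 and 0.983, and the mitochondrial thymidine kinase gene Tk2, with 2.70 and 0.896. The lowest were at the anthrax toxin receptor gene Antxr1, with 0.342 in preGM and 1.84 in LSK, and at Klf2, a factor of lymphoid quiescence, with 0.535 and 2.27. Psd2, with 0.969 and 3.16, and Por, with 0.871 and 2.49, followed. PU.1 at the Klf2 enhancer was higher in preGM, with 8.48, than in LSK, with 4.87.

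In GMP against preGM, at least 2-fold more H3K27ac was counted at 166 members (10.7%), against 9.21% of all enhancers, and 2-fold less at 11 (0.710%), against 0.411%. After centring the counts were 47 higher (3.03%), against 2.77%, and 43 lower (2.78%), against 2.13%, so that the split between higher and lower rests on the scaling. The class that runs to granulocytes held 84 of the 166 (15.6% of its 538), and the class that ends at GMP held 82 (8.11% of 1011). Beside Prtn3, the highest ratios were at Arid3a, a DNA-binding factor gene (8.22 in GMP and 1.87 in preGM), at Sec24d of the vesicle coat (10.1 and 2.53) and at the secretase gene Bace1 (4.41 and 0.767). Among the lowest ratios were those at H2afy, which encodes the histone variant macroH2A (0.633 in GMP and 2.67 in preGM), at Hoxa7 and at A530016L24Rik (0.280 and 1.74).

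In granulocytes against GMP, the members and all enhancers differed mainly in the share with less H3K27ac. At least 2-fold less H3K27ac was counted at 186 members (12.0%), against 6.05% of all enhancers, and 2-fold more at 184 (11.9%), against 14.1%. After centring, 228 members (14.7%) were lower, against 8.24%, and 139 (8.97%) were higher, against 10.8%. Of the 186, 148 lay in the class that ends at GMP (14.6% of it) and 38 in the class that runs to granulocytes (7.06%). Unbound enhancers of the LSK stage held 6.49% and those bound by both factors 8.91%. The highest ratios were at the actin-capping protein gene Capg, with 9.71 in granulocytes and 0.448 in GMP, the receptor gene of ER turnover Fam134b, with 20.1 and 2.15, the cadherin gene Cdh15, with 13.1 and 1.46, and the stress response gene Osgin1, with 6.50 and 0.483. Capg and Cdh15 were classed as ending at GMP, which their H3K27ac in granulocytes does not follow. The lowest were at Znrf4, with 0.660 in granulocytes and 11.3 in GMP, the fatty acid synthase gene Fasn, with 1.16 and 14.2, the nudix hydrolase gene Nudt19, with 4.14 and 31.9, and the GTPase gene Rhobtb1, with 1.24 and 11.9.

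H3K4me1 ran opposite to H3K27ac at 3 of these 4 enhancers. It was 13 in granulocytes and 5.33 in GMP at Fasn, 14.4 and 4.79 at Nudt19, and 14.7 and 7.13 at Rhobtb1. At the 186 members with 2-fold less H3K27ac in granulocytes the median log2 ratio of H3K4me1 was 0.21 (quartiles -0.53 and 0.74), and 15 of them had 2-fold more H3K4me1 while 17 had 2-fold less. At the 184 members with 2-fold more H3K27ac the median was 0.45 (0.15 and 0.67), with 3 and 0. The quartiles of H3K4me1 thus lay wider apart at the 186 than at the 184. Over all enhancers the medians were 0.39 at the 2661 with 2-fold less H3K27ac and 0.73 at the 6188 with 2-fold more.

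For H3K4me1 as a whole, at least 2-fold more in granulocytes than in GMP was counted at 30 members (1.94%), against 9.69% of all enhancers, and 2-fold less at 63 (4.07%), against 2.81%. After centring these counts were 3 (0.194%), against 3.43%, and 177 (11.4%), against 10.2%. All 63 were in the class that ends at GMP. Before centring, LSK-stage enhancers also held low shares with 2-fold more, at 1.395% of unbound ones and 1.43% of those bound by both factors. The low share with 2-fold more was thus not particular to the members. With 2-fold less, the same classes held 9.01% and 0.891%, so the members lay between them. All of these classes were chosen as present in LSK, and the part of that choice was not tested. The highest ratios were at the testis kinase gene Tssk5 (17.4 in granulocytes and 4.96 in GMP), the kinetochore gene Nsl1 (12.8 and 3.76), the RNA exosome gene Dis3l (14.2 and 4.38) and the thioesterase gene Acot7 (13.7 and 4.35). At Dis3l and Acot7 the H3K27ac signal went the other way, with 4.91 in granulocytes and 29.2 in GMP at Dis3l, and 3.86 and 21.3 at Acot7. The lowest ratios were at Tril (1.03 and 6.66), Stox2 (1.35 and 6.81), Egfl7 (1.14 and 6.03) and Tmem176a (0.965 and 5.52). Between GMP and LSK, 2-fold more H3K4me1 was counted at 0 members, against 2.23% of all enhancers. The other LSK-stage classes, unbound or bound by both factors, also had 0, and all of them were chosen as present in LSK, so nothing is read from this count. In GMP, 2-fold less H3K4me1 than in LSK was counted at 6 members (0.387%), against 0.241%, or at 13 (0.839%) after centring, against 0.475%. The lowest ratios were at Tcof1 (1.98 in GMP and 6.98 in LSK), Cdkn1c, which encodes the cell cycle inhibitor p57 of quiescent stem cells (1.85 and 6.65), Stac3 (2.93 and 8.92) and Ssbp3 (2.16 and 6.80). At each of these 4, PU.1 was also lower in GMP than in LSK. Tcof1 had 2.35 and 6.42, Cdkn1c 0.998 and 3.34, Stac3 1.66 and 3.07, and Ssbp3 1.21 and 2.70.

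**Figure D3:**
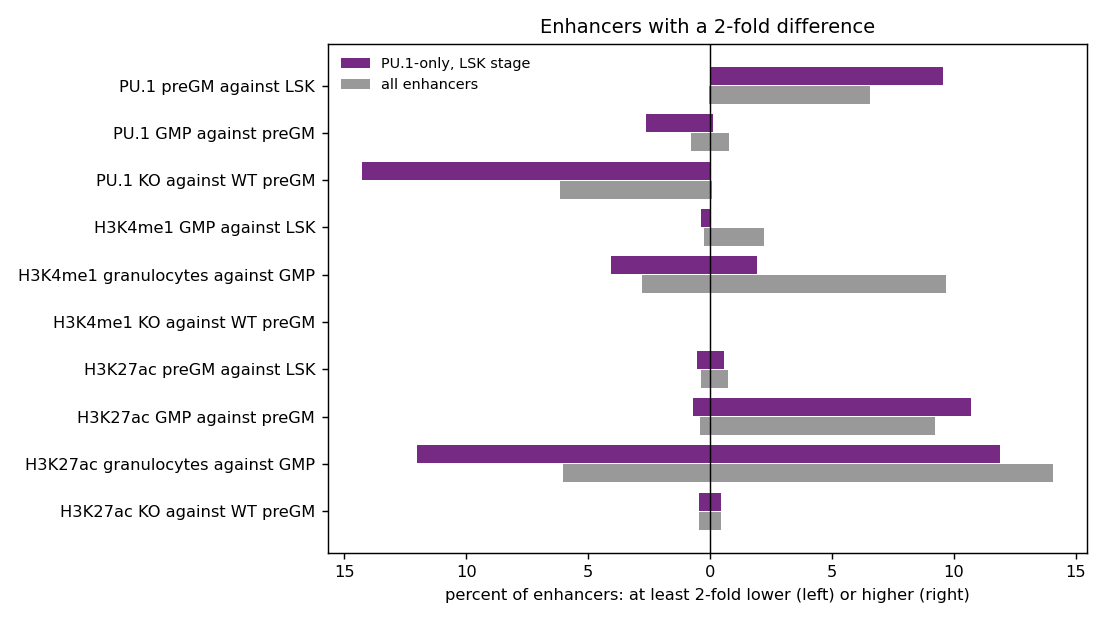
Percent of enhancers at least 2-fold lower (left of 0) or higher (right of 0) in the group named first, for the 1549 PU.1-only enhancers of the LSK stage (purple) and all 44002 enhancers (grey). Without centring, 2-fold less PU.1 in Cebpa KO preGM was counted at 14.3% of members, against 6.15% of all enhancers, and 2-fold less H3K27ac in granulocytes at 12.0%, against 6.05%. Both signals had lower medians over all enhancers, where the added constant shrinks ratios more.

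The deletion of Cebpa went with less PU.1 at these enhancers, although they were classed as free of CEBPA. The median PU.1 signal was 3.35 in KO preGM, against 5.59 in wild type preGM, and it was lower in KO at 1510 of the 1549 members (97.5%), against 71.7% of all enhancers. The members were chosen as bound by PU.1, and if that call used wild type preGM signal, it favours a lower value in KO than at enhancers not so chosen; its part in the difference was not tested. The median log2 ratio was -0.66, against -0.27 over all enhancers. At least 2-fold less PU.1 in KO was counted at 221 members (14.3%), against 6.15% of all enhancers, and 2-fold more at 0, against 0.0955%. After centring, 59 members (3.81%) were 2-fold lower, against 1.99% of all enhancers. Other PU.1-bound classes had similar or lower ratios, and no test of a difference between classes was possible. PU.1-only enhancers that start after LSK had a median ratio of -0.63 with 14.3% at least 2-fold lower. LSK-stage enhancers bound by both factors had -0.73 with 20.7%, and unbound ones of the LSK stage had -0.17 with 0.808%. The unbound class and all enhancers are low in PU.1, with medians of 1.20 and 1.34 in wild type preGM. There the added constant shrinks a ratio more than at the members, and its part in these differences was not tested.

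**Figure D4:**
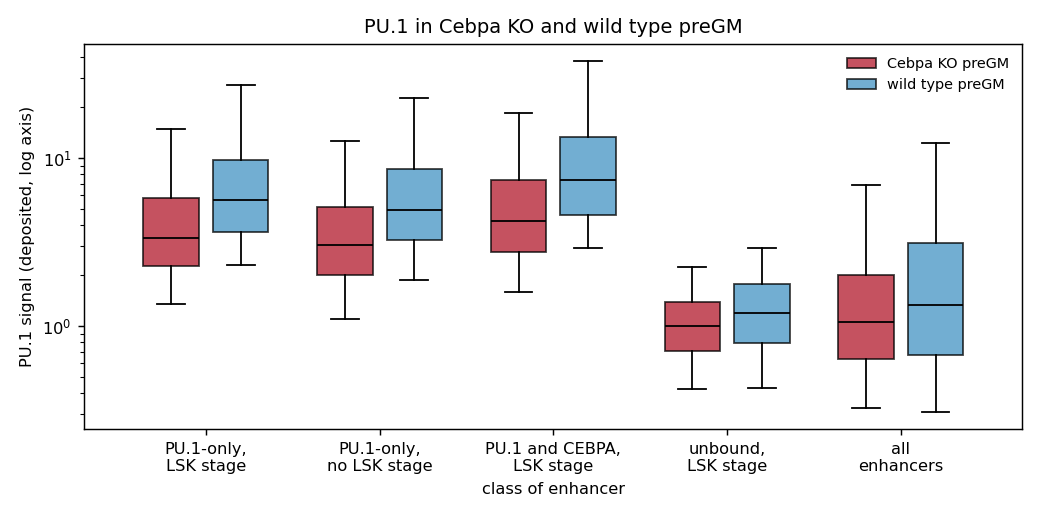
PU.1 signal on a log axis in Cebpa KO preGM (red) and wild type preGM (blue) for 5 classes of enhancer; boxes show quartiles and median, whiskers the 5th and 95th percentiles. The median of PU.1-only enhancers of the LSK stage was 3.35 in KO and 5.59 in wild type, and the unbound class had 1.00 and 1.20.

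Without Cebpa, PU.1 stood near the level of LSK. Set against LSK, which leaves out wild type preGM but uses another wild type PU.1 column, KO preGM had a median log2 ratio of -0.13 at the members and 0.02 over all enhancers, and PU.1 was lower in KO than in LSK at 989 members (63.8%), against 47.5%. The share with 2-fold less PU.1 than wild type preGM was larger with the strength of PU.1 in LSK, at 39 (10.1%), 43 (11.1%), 58 (15%) and 81 (20.9%) of members in the 4 equal groups from weakest to strongest. The median ratios were -0.51, -0.58, -0.66 and -0.80. The added constant shrinks the ratios of weak enhancers more, and its part in this order was not tested. The lowest ratios among enhancers with at least median signal were at Irgm2, an interferon-inducible GTPase gene, with 2.65 in KO preGM and 12.1 in wild type preGM, and at Pou2f2, which encodes the lymphoid factor Oct-2, with 1.70 and 8.08. Cmtm3 had 3.03 and 12.5, and the surface protein gene Ly6e had 4.23 and 16.4. In each of these 4 the KO value lay below that of LSK, which was 3.39 at Irgm2, 2.39 at Pou2f2, 4.27 at Cmtm3 and 4.70 at Ly6e. Tgm2 was an exception among the enhancers with the largest difference between preGM and LSK, since PU.1 there was 13 in KO preGM, against 17.8 in wild type preGM and 4.34 in LSK. Prex1 likewise had close values, with 10.4 in KO and 11.1 in wild type. So did the strongest of 3 members at Lyl1, with 8.73 and 9.14. The 3 at Lyl1 ran from 1.37 to 8.73 in KO and from 2.26 to 9.14 in wild type. Lyl1 encodes a helix-loop-helix factor of haematopoietic progenitors.

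The marks did not share this difference. H3K27ac had a median of 1.67 in KO preGM, against 1.59 in wild type preGM, and at least 2-fold more was counted in KO at 7 members (0.452%), against 0.441% of all enhancers, and 2-fold less at 7 (0.452%), against 0.47%. H3K4me1 had a median of 5.42 in KO, against 4.55, with 2-fold more at 0 members, against 0% of all enhancers, and 2-fold less at 0, against 0.00909%. Its median ratio was 0.19 at the members and 0.10 over all enhancers. At the 221 members with 2-fold less PU.1 in KO, the median H3K27ac ratio was 0.08 and 2 of them had 2-fold less H3K27ac. At the other 1328 the median was 0.09, and 5 had 2-fold less. Across members the Spearman correlation of the PU.1 and H3K27ac ratios was 0.01. The highest H3K27ac ratios in KO were at the AP-1 factor gene Junb (3.05 in KO and 0.789 in wild type), at Psd2 (3.01 and 0.969), at the calcium pump gene Atp2b4 (2.04 and 0.541) and at Gpr56, an adhesion receptor of stem and progenitor cells (8.60 and 3.60). The lowest were at H2afy (0.695 and 2.67), Crybb3 (0.564 and 2.38), the prostacyclin receptor gene Ptgir (0.486 and 1.98) and Tgfbi (0.620 and 2.49). PU.1 at Gpr56 was 3.83 in KO and 4.29 in wild type, and at Junb it was 2.11 and 2.42.

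**Figure D5:**
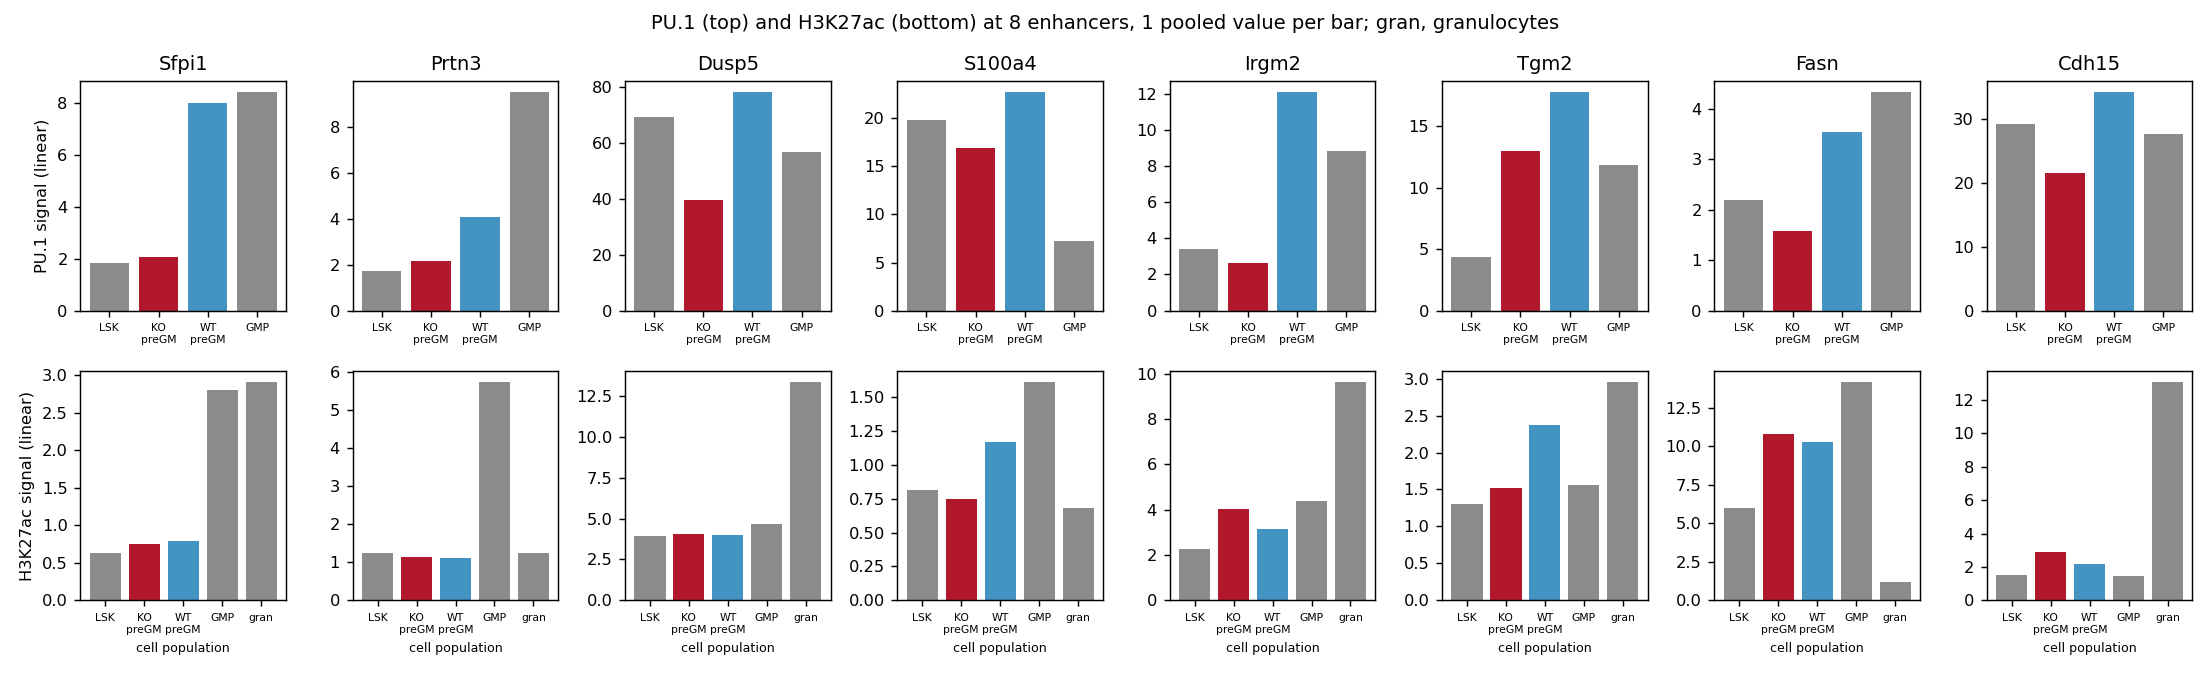
PU.1 (top row) and H3K27ac (bottom row) signal at 8 named enhancers, 1 pooled value per bar, with Cebpa KO preGM in red, wild type preGM in blue and the other wild type stages in grey. PU.1 in KO preGM was 2.05 at Sfpi1 and 2.65 at Irgm2, near the LSK values of 1.85 and 3.39, whereas at Tgm2 it was 13 against 4.34 in LSK.

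Among lists of genes, chosen with earlier results of these data known, the share of enhancers that were members ran between 0% and 7.41%, against 3.52% in the whole table. Of the 29 genes for PU.1 network and partner factors in the table, 11 had a member, 15 of their 567 enhancers (2.65%). The strongest in PU.1 of these was at Bcl11a, a transcriptional repressor gene needed by B cells, with 40.5 in LSK, 75.9 in preGM and 58.3 in GMP, and 40.3 in KO preGM. Its H3K27ac was only 1.47 in LSK and 0.572 in GMP. Ets1, a related ETS factor of lymphoid cells, had PU.1 of 8.53 in LSK, 7.08 in preGM and 3.86 in GMP, one of the 74 members where LSK was highest. Receptor genes had 5 members at 188 enhancers (2.66%). At Il6ra, the interleukin-6 receptor gene, PU.1 was 8.27 in KO preGM, against 18.4 in wild type preGM, and H3K27ac was 0.504, against 1.62. At Csf1r, the receptor gene of macrophage colony-stimulating factor, PU.1 was 5.99 in LSK, 8.37 in preGM and 3.34 in GMP, and H3K4me1 in granulocytes was 0.342, against 3.14 in GMP.

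Src-family and immunoreceptor signalling genes had 8 members at 281 enhancers (2.85%), with Lyn, an inhibitory and activating Src-family kinase, at the top: PU.1 was 22.4 in LSK, 43.1 in preGM and 39.0 in GMP, and 22.1 in KO preGM. Its H3K27ac reached 3.85 in granulocytes, against 1.90 in GMP. Plcg2, the phospholipase gene of the same pathway, had PU.1 of 6.23 in KO preGM, against 12.5 in wild type preGM. The phosphatase genes Ptpn6 (SHP-1) and Inpp5d (SHIP-1), which dampen cytokine signals, had 5.42 and 4.08 in KO preGM, against 8.82 and 6.60 in wild type preGM. The oxidase subunit gene Ncf4 held the single member among 119 enhancers of phagocyte oxidase and lysosome genes (0.840%), with PU.1 of 11.0 in KO preGM, against 22.9 in wild type preGM, and 10.9 in LSK. Stem and multipotent progenitor genes had 8 members at 208 enhancers (3.85%), in 7 of the 21 genes. Procr, the protein C receptor gene used to mark stem cells, had PU.1 of 6.05, 6.82 and 4.49 in LSK, preGM and GMP, with H3K27ac of 0.596 in granulocytes, against 0.855 in GMP. Erg, an ETS factor gene of stem cells, had H3K27ac of 1.16 in granulocytes, against 6.50 in GMP. Toll-like receptor and innate signalling genes had 2 members at 136 enhancers (1.47%), at Ly86 and Myd88. Adhesion and chemotaxis genes had 1 member at 209 (0.478%), at the integrin gene Itgb7. Primary granule genes had 2 at 27 (7.41%), both at Prtn3.

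Markers of other cell types that the gates could hold were rare among the members. B cell markers had 0 members at 19 enhancers, T and NK cell markers 0 at 15, dendritic cell markers 0 at 41, and those of mast cells, basophils and eosinophils 0 at 1. Erythroid markers had 1 at 14, the transferrin receptor gene Tfrc, which dividing progenitors also use. Monocyte and macrophage markers had 2 at 133, at Csf1r and Ly86.

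The genes with the most members were Gse1 with 7 of its 60 enhancers, AI413582 with 6 of 25, 1700029H14Rik with 5 of 6, and Rbm38, Zfp36l2 and Zmiz1 with 5 of 33, 70 and 39. Bach2, Crybb3 and Ggta1 had 4 each, as did several other genes. Members of 1 gene did not always act alike. All 7 at Gse1, a gene for a corepressor-associated protein, were of the class that ends at GMP, with H3K27ac between 0.457 and 1.28 in granulocytes, against 0.755 to 3.73 in GMP. At 1700029H14Rik, the 4 members within one stretch of chr8:13594617-13601274 (mm9) had H3K27ac between 4.99 and 8.27 in granulocytes, against 1.35 to 2.45 in GMP. The fifth, at chr8:13531106-13531258, had 0.719 in granulocytes and 0.864 in GMP. At Crybb3, all 4 had low marks in granulocytes, with H3K27ac between 0.675 and 0.903 and H3K4me1 between 0.589 and 2.78, against 3.11 to 7.62 for H3K4me1 in GMP. Bach2, which encodes a repressor that holds back myeloid genes in lymphoid progenitors, had H3K27ac between 0.438 and 0.722 in granulocytes at its 4 members. At Zfp36l2, which encodes an mRNA decay factor, PU.1 at the 5 members ran between 7.26 and 10.9 in KO preGM, against 11.2 to 21.6 in wild type preGM. At Ggta1, 3 of the 4 members lay within 1000 bp of each other, with PU.1 of 15.8 to 16.6 in KO preGM, against 39.2 to 40.8 in wild type preGM.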

How the data were processed

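All values come from 1 deposited table of 44002 mouse enhancers on build mm9, per the submitters' processing notes, which name Bowtie2, MACS2 and bedtools with no versions. The 15 columns used hold the authors' pooled signal, 1 column per assay, stage and genotype (30 listed libraries of 77 samples, 2 per group); its scaling by the authors is not stated in the labels, and depth is unknown. The convention of the start coordinate is not stated, and coordinates are printed as deposited. A further 17 value columns were not used, among them 6 of expression that could not be tied to the listed RNA libraries, so expression is not reported here.

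Log2 ratios used as pseudocount the 25th percentile of an assay's values, rounded to 1 significant digit. Differences of at least 2-fold were counted with no test, since each group is 1 pooled value. Named are, per comparison, the 4 highest and 4 lowest 2-fold members with at least the members' median in the higher group, the 10 strongest in PU.1 in LSK, the 10 genes with most members, up to 4 genes per list, and Spi1 and Cebpa; some genes that this rule names are not reported here. Members and lists were chosen with earlier results of these data known. The counting was tested on simulated data (Python 3.11.15, pandas 2.3.3, numpy 2.4.6). Of 1233 gene symbols, 1130 matched RefSeq symbols and 97 a synonym.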

Additional observations from a re-analysis of the deposited data

How the results depend on the processing

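Counts of members with a 2-fold difference depend on the pseudocount and the scaling. After subtracting the median ratio of all enhancers, counts beyond 1.5 times the reported ones were, for H3K27ac in GMP against preGM, 47 higher (166 as reported) and 43 lower (11). For H3K4me1 they were 13 lower in GMP against LSK (6), and 3 higher (30) and 177 lower (63) in granulocytes against GMP. For PU.1 they were 38 higher in preGM against LSK (148) and 59 lower in KO against wild type preGM (221).

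With a pseudocount 4 times larger, H3K27ac gave 0 higher and 0 lower in preGM against LSK, 27 and 0 in GMP against preGM, 71 and 55 in granulocytes against GMP, and 0 and 0 in KO preGM. H3K4me1 gave 0 lower in GMP against LSK, and 0 higher and 0 lower in granulocytes against GMP. PU.1 gave 36 higher in preGM, 0 higher and 6 lower in GMP, and 59 lower in KO. With one 4 times smaller, H3K27ac gave 53 and 47, 284 and 49, and 58 and 30 in preGM, GMP and KO preGM. H3K4me1 gave 17 lower in GMP against LSK, and 88 higher and 170 lower in granulocytes. PU.1 gave 74 lower in GMP. A pseudocount of 0.6 for H3K27ac, chosen after seeing the data, gave 11 higher and 11 lower in KO preGM. The settings not printed here, and a filter on low values for all 20 counts, kept them within 1.5 times.

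Leaving out a replicate was not possible with pooled values, and the alternative for expression was not run. No paired analysis was possible because each group is 1 pooled value with no replicate number. Without depth or replicates, no count here has an error.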
